A study of Homo sapiens with 2 samples.

Results

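The 55 keratin genes measured in A427 cells are the subject here. They are all symbols of the deposited gene tables that start with KRT and a digit, out of 23686 symbols in all. Left out were 7 pseudogene symbols, among them KRT42P, and no antisense symbol of this kind was listed. A427 is a cell line from a human non-small cell lung cancer, and its cells grow in 2 forms, adherent on plastic or as spheres in suspension. The labels give its genotype as WT, while the series title calls the cells CTNNB1-mutated, and both growth forms were kept in RPMI medium with serum. There was 1 library of adherent cells, with 26384670 estimated reads, and 1 library of floating, sphere-forming cells, with 27148842. The study asked what sets the sphere-forming cells apart in gene expression. With 1 library per group there is no replicate, no SD and no p-value, and each fold below compares these 2 libraries only. Its 95% interval is an exact binomial (Clopper-Pearson) interval on read counts and covers counting error, not the spread between cultures.

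Keratins are the intermediate filament proteins of epithelia. A filament is built from heterodimers of an acidic type I and a basic type II keratin, and a keratin without a partner of the other type is degraded. KRT8 and KRT18 form the filaments of simple epithelia such as that of the lung alveolus, with KRT7, KRT19 and KRT20 as further simple keratins. KRT5 with KRT14 mark the basal layer of stratified epithelia and KRT1 with KRT10 its upper layers. KRT6A, KRT6B, KRT16 and KRT17 are known for wounded and hyperproliferative epidermis. The hair keratins, KRT31 to KRT40 of type I and KRT81 to KRT86 of type II, are known as the building material of hair and nail, and further keratins belong to the root sheath of the hair.

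As an example of a conserved part of these genes, 30 coding bases (10 codons) are printed for 7 keratins at the end of the central rod domain. All intermediate filament proteins carry a conserved helix termination motif there. Each stretch was chosen as the best match to that motif, so the likeness here does not show how closely related the whole genes are. The bases come from the principal GENCODE 29 transcript of each gene. Capitals mark the 13 bases that are the same in all 7.
KRT8: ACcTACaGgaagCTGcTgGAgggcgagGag
KRT80: ACcTACaGgaagCTGgTgGAgggcgagGag
KRT81: ACcTACaGgcgcCTGcTgGAgggcgagGag
KRT18: ACcTACcGccgcCTGcTgGAagatggcGag
KRT19: ACcTACcGcagcCTGcTcGAgggacagGaa
KRT10: ACcTACcGcagcCTGcTaGAaggagagGga
KRT40: ACgTACtGgggcCTGcTgGAcagcgagGac
The first 3 are type II and the other 4 type I genes. Over the whole coding sequence KRT8 and its partner KRT18 were 55.3% identical in aligned bases, whereas KRT8 and the type II hair keratin KRT81 were 65.6% identical. No stretch of 50 coding bases was shared by KRT8 and KRT18, so coding reads of that length from one do not fully match the other.

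Nearly all keratin RNA came from KRT8 and KRT18, and both were higher in the floating library by almost the same factor. KRT8 stood at 326.6 TPM (transcripts per 1000000, a level corrected for gene length) in adherent and 581.1 TPM in floating cells. KRT18 stood at 342.5 and 612.5 TPM. KRT8 had 6535 and 12391 reads, a 1.83-fold difference after scaling for library size (interval 1.78 to 1.89). KRT18 had 5337 and 10180 reads, a 1.84-fold difference (interval 1.78 to 1.91). The fold of KRT18 divided by that of KRT8 was 1.01 (interval 0.962 to 1.05), so the partners did not differ from each other beyond counting error. Neither gene reached the 2-fold rule used for a call, which asks for at least 2-fold with an interval that excludes no difference. Among all 13131 tested genes (at least 1 count per 1000000, CPM, in at least 1 library), 3.24% were at least 1.5-fold higher with such an interval.

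At this level of expression a difference of that size toward the floating library was rare. Genes lower by as much were not counted. Of 1829 genes with at least 100 TPM in at least 1 library, 6 had a log2 ratio at or above that of KRT8, KRT8 and KRT18 included, and KRT18 ranked the fifth. The median log2 ratio of those 1829 genes was 0.05. By level KRT18 moved from rank 414 to rank 224 among all symbols, and KRT8 from rank 440 to rank 236. How far such abundant genes vary between cultures of one growth form was not measured.

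**Figure D1:**
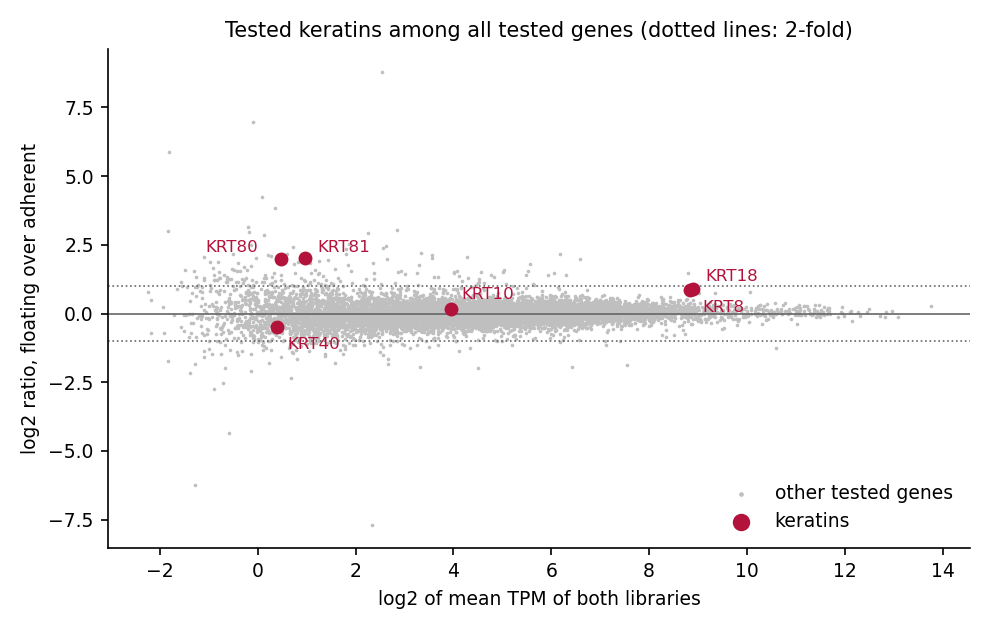
Each grey point is a tested gene, by the log2 of its mean TPM (x axis) and its log2 ratio of floating over adherent scaled reads (y axis), with the 6 tested keratins in red and dotted lines at 2-fold. KRT8 and KRT18 lie at the upper edge of the cloud for genes of their level, KRT10 near 0, and KRT80 and KRT81 at about 4-fold among genes of low level.

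The scale of that change can be set against the other filament proteins of the line. All 55 keratins summed to 688 TPM in the adherent library and 1221 TPM in the floating one, of which KRT8 and KRT18 made up 97.2% and 97.8%. VIM, which encodes vimentin, the filament protein of mesenchymal cells and of many cultured carcinoma lines, was at 5264 and 4850 TPM. VIM thus exceeded all keratins together by 7.65 times in the adherent and 3.97 times in the floating library. Keratins made up 10.6% of the summed TPM of keratins and 16 other intermediate filament genes in the adherent library and 18.5% in the floating one. Of these 16, 11 were tested and none passed the 2-fold rule in either direction, against 2.03% of all tested genes, a share at which a count of 0 says nothing about the list. The median log2 ratio was 0.17 against -0.005 for all tested genes. Intervals lay above no difference for 5 of the 11 and below it for 2 (VIM and LMNB1), against 25.5% and 25.6% of all tested genes. Those above were LMNA, which encodes lamins A and C (log2 ratio 0.44), LMNB2 (0.17) and the neuronal filament genes NEFL (0.47), INA (0.34) and NEFH (0.26). LMNB1, which encodes lamin B1 of the nuclear envelope, was at 228.6 and 195.2 TPM (log2 ratio -0.18).

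KRT8 and KRT18 have many processed pseudogenes, copies of their mRNA scattered over the genome, which can take or lend reads. GENCODE 29 names 50 such copies of KRT8 and 67 of KRT18, and the deposited tables list 1 of each. Those listed, KRT8P41 and KRT18P55, held 0 and 0 reads and 1 and 1 read. Of all windows of 50 coding bases in KRT8, 48.4% occur unchanged in at least 1 of its copies, and 8.89% of windows of 100 bases. For KRT18 the shares were 38.8% and 0%. The read length and the treatment of unlisted copies were not given in the sources used here, so reads near 50 bases could not all be told apart from those of a copy.

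The remaining simple keratins were close to the limit of detection. KRT19, which is common in ductal and airway epithelium, had 8 and 22 reads, or 0.5 and 1.3 TPM. It was 2.56-fold higher in floating cells (interval 1.14 to 6.91). KRT20, a keratin of the gut epithelium and the urothelium, had 2 and 5 reads (ratio 2.13, interval 0.396 to 25.4). KRT7, a type II keratin widely used to mark lung adenocarcinoma, had 4 and 3 reads, or 0.21 and 0.15 TPM. The difference in KRT7 was 1.33-fold toward the adherent library and lay within counting error. A427 cells therefore held the KRT8 and KRT18 transcripts with very little of the simple keratins KRT7, KRT19 and KRT20. Without KRT8 and KRT18 the simple keratins summed to 14 and 30 reads (2.03-fold, interval 1.07 to 4.23).

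**Figure D2:**
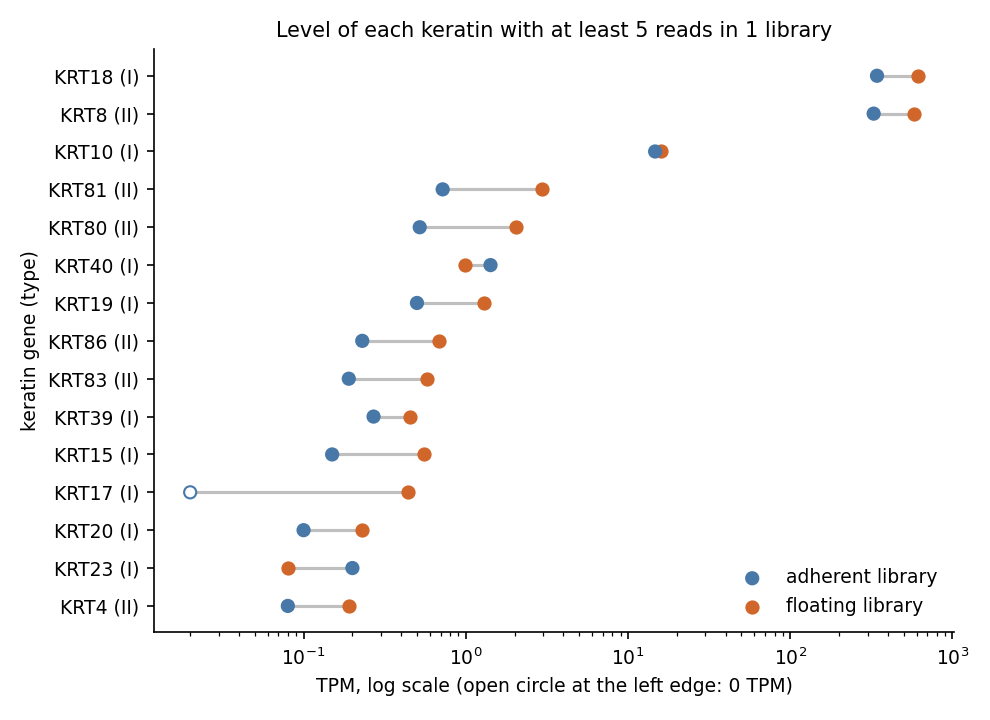
Level in TPM (x axis, log scale) of the 15 keratins with at least 5 reads in 1 library, in the adherent (blue) and floating (orange) library, with the type of each keratin in brackets. KRT18 and KRT8 stand at 326.6 to 612.5 TPM, KRT10 follows at 14.69 and 15.93 TPM, and the other 12 lie below 3 TPM.

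Among stratified keratins, KRT10 was the only one of the 20 with more than 12 reads in either library. KRT10, the type I keratin of differentiating epidermis, had 357 and 413 reads, or 14.69 and 15.93 TPM. Its log2 ratio of 0.16 (interval -0.05 to 0.37) included no difference. The fold of KRT10 divided by that of KRT8 was 0.610 (interval 0.527 to 0.707), so KRT10 did not share the excess of KRT8 in floating cells. KRT1, the type II partner of KRT10 in skin, had 0 reads in both libraries, a count that allows at most 0.114 CPM for adherent and 0.111 CPM for floating cells. TMEM99, which RefSeq now names as an antisense gene of KRT10, overlaps it and had 259 and 290 reads. The use of strand in counting was not given in the sources used here, so reads of KRT10 and TMEM99 cannot be fully told apart.

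Beside KRT10, 7 stratified keratins had any read, and together they held 6 reads in adherent and 28 in floating cells. The summed difference was 4.24-fold (interval 1.83 to 13.3) toward the floating library. KRT15, a keratin of basal and stem cells of the epidermis and the hair bulge, had 3 and 12 reads (ratio 3.45, interval 1.04 to 21.3). KRT17, a type I keratin of skin appendages and of injured epidermis, had 0 and 8 reads. Its 8 reads against a limit of 3 adherent reads gave a 2.58-fold difference, and the counting interval reached down to 1.65-fold. KRT4, the type II keratin of the oesophagus and other internal stratified linings, had 2 and 5 reads (interval 0.396 to 25.4). KRT6B had 1 read in the adherent library alone. KRT12, KRT13 and KRT79 had 1 read each in the floating library alone. KRT5, KRT14, KRT6A, KRT6C and KRT16 had 0 reads in both libraries. Squamous markers outside the keratins were likewise near 0, with TP63 at 4 and 0 reads and DSG3 at 2 and 3 reads.

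The epithelial keratin KRT80 and the type II hair keratin KRT81 showed the largest differences among the 6 keratins with at least 1 CPM in 1 library. KRT80, a type II keratin of epithelia that is not assigned to simple or stratified tissues here, had 24 and 101 reads, or 0.52 and 2.05 TPM. It was 4.004-fold higher in floating cells (interval 2.59 to 6.64). KRT81, which is also known from carcinoma cells, had 16 and 68 reads, or 0.72 and 2.96 TPM, and was 4.01-fold higher (interval 2.36 to 7.59). These were the 2 of 6 tested keratins past the 2-fold rule, against 1.28% of all tested genes in that direction. Intervals lay above no difference for 4 of the 6 (KRT8, KRT18, KRT80 and KRT81) and below it for none, against 25.5% and 25.6% of all tested genes. Both genes past the rule reached 1 CPM in the floating library alone, so they had to differ to be tested and their share says little about keratins as a group. No tested keratin was lower past the rule, against 0.754% of tested genes.

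KRT83 and KRT86, the close relatives of KRT81, stayed below 1 CPM, and reads of KRT86 in particular can be hard to tell from those of KRT81. KRT83 had 4 and 13 reads (ratio 2.90, interval 0.971 to 13.2, which includes no difference) and KRT86 had 5 and 17 reads (3.08-fold, interval 1.16 to 11.4). KRT81 and KRT86 were 93.5% identical in aligned coding bases, and 49.2% of the 50-base windows of KRT81 occur unchanged in KRT86. KRT81 and KRT83 were 93.3% identical, with 7.98% of 50-base windows shared and 0% of 100-base windows. The 66 coding bases below (bases 757 to 822 of the KRT81 coding sequence) are the longest run that all 3 genes share. A read that lies wholly within this run cannot be assigned to 1 of them.
Shared run: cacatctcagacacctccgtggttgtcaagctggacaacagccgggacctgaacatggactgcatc
The 60 coding bases in which the 3 genes differ most are shown next, with the 16 positions that differ in capitals. They span coding bases 1249 to 1308 of KRT81 and KRT86 and 1264 to 1323 of KRT83.
KRT81: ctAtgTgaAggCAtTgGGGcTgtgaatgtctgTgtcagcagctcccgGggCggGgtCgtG
KRT86: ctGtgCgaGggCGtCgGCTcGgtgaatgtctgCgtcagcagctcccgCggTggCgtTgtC
KRT83: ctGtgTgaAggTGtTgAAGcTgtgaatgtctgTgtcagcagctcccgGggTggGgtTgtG
The deposited estimates carry the mark of such sharing. KRT81 and KRT86 were given 15.51 and 5.49 reads in the adherent library and 67.64 and 17.28 in the floating one, and KRT83 was given 4 and 13.07. The 3 estimates summed to 25 and 97.99, close to whole reads. The sum does not depend on how reads were divided, and it was 3.73-fold higher in floating cells (interval 2.42 to 6.14).

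**Figure D3:**
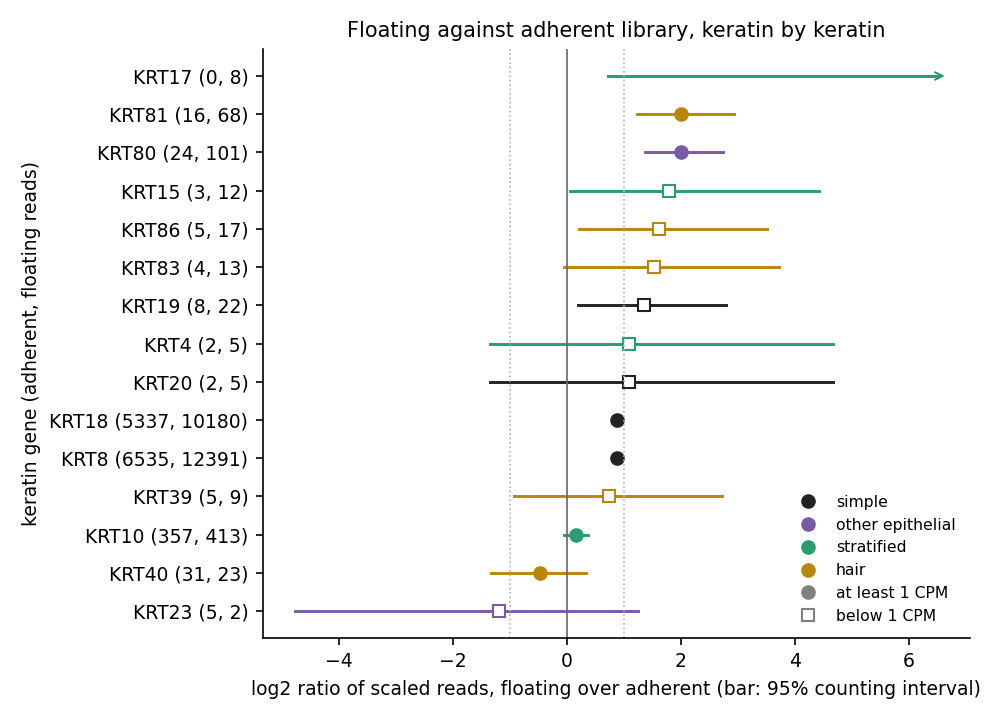
Log2 ratio of floating over adherent scaled reads (x axis, dotted lines at 2-fold) for the 15 keratins with at least 5 reads in 1 library, with reads in brackets, bars for the 95% counting interval and colours for the class. KRT17 has 0 adherent reads and is drawn as an interval open to the right, KRT8 and KRT18 sit just below 2-fold with very short bars, and KRT40 and KRT23 have ratios below 0.

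The type I hair keratins did not follow as a sum, which was led by KRT40. KRT40 had 31 and 23 reads, or 1.42 and 0.99 TPM, a 1.39-fold difference toward the adherent library that lay within counting error (log2 interval -1.32 to 0.35). KRT39, its neighbour on the chromosome, had 5 and 9 reads (1.67-fold, interval 0.524 to 6.61). KRT33B and KRT34 had 1 read each in the floating library, and the other 7 type I hair keratins had none. Over all 11 type I hair keratins the reads were 36 and 34, against 25 and 98 over the 6 of type II. The fold of the type II sum was 4.12 times that of the type I sum (interval 2.08 to 8.30), so the sums differed beyond counting error. KRT40 held 31 of the 36 adherent and 23 of the 34 floating type I reads, so the contrast rests largely on this gene. The interval of KRT39 included the fold of the type II sum (3.73). KRT82, KRT84 and KRT85, the other type II hair keratins, had 0 reads. Of 9 root sheath keratins, KRT74 alone had a read, 1 in the floating library. The type I keratins KRT23 (5 and 2 reads) and KRT222 (0 and 2 reads) of other epithelia, like KRT24 with 0, gave no difference that could be read at this depth.

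As partners of the 2 types are needed for a filament, the balance between types was compared in each library on summed TPM. Over all keratins type I exceeded type II by 1.10 times in adherent cells (359.8 against 328.6 TPM) and by 1.08 times in floating cells (632.8 against 587.8 TPM). As reads per coding length the ratios were 0.963 and 0.942, so which type was in slight excess depended on the length used. The balance was set by the main pair, with KRT18 at 1.05 times KRT8 in both libraries. Both sums were higher in floating cells, type I by 1.80-fold (interval 1.74 to 1.85) and type II by 1.85-fold (interval 1.79 to 1.90). Outside that pair the types were unequal. Stratified keratins were almost all type I, 14.84 against 0.12 TPM in adherent and 17.01 against 0.23 TPM in floating cells, with KRT10 read and KRT1 not. Among hair keratins the type I to type II ratio was 1.48 in the adherent and 0.365 in the floating library. The adherent value rests on only 36 reads of type I against 25 of type II, so which type was more abundant there cannot be read at this depth. Without KRT8 and KRT18, type I exceeded type II by 8.71 times in adherent and 3.03 times in floating cells. Of the classical partner pairs KRT5 with KRT14, KRT6A with KRT16 and KRT3 with KRT12, no member had more than 1 read.

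**Figure D4:**
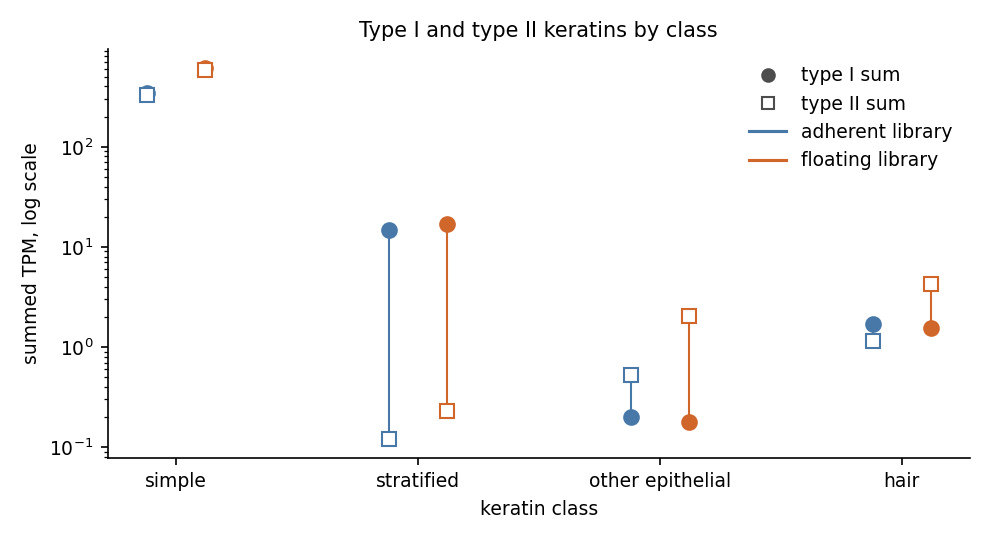
Summed TPM (y axis, log scale) of type I keratins (filled circles) and type II keratins (open squares) in 4 keratin classes, for the adherent (blue) and floating (orange) library. The symbols of simple keratins coincide in each library, those of stratified keratins lie far apart, and those of hair keratins lie at 1.69 against 1.14 TPM in the adherent and 1.54 against 4.22 TPM in the floating library.

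Of the 55 keratins, 6 were tested, 9 fell below 1 CPM with at least 5 reads in 1 library, 9 had 1 to 4 reads at most and 31 had none in either library. Adherent cells had a read for 16 keratins and floating cells for 23, with 8 in floating cells alone and 1 in adherent cells alone. Over all 23686 symbols 16277 had a read in adherent and 16603 in floating cells, with 873 in floating cells alone and 547 in adherent cells alone. The 8 keratins of floating cells alone held at most 8 reads each. Of the 9 keratins below 1 CPM with at least 5 reads, 8 had ratios above 0 and 4 had intervals above 0 (KRT15, KRT17, KRT19 and KRT86). Among all 1734 genes in the same range 52.8% had ratios above 0 and 6.81% intervals above 0. Of the 9, 5 (KRT4, KRT15, KRT17, KRT20 and KRT83) reached 5 reads in the floating library alone, so they had to lie on that side and the counts say little about keratins as a group. KRT86 shares reads with KRT81, so these members are not independent. The 52 keratins other than KRT8, KRT18 and KRT10 together held 110 and 296 reads (2.59-fold, interval 2.08 to 3.27). Much of this sum came from KRT80 (24 and 101 reads) and from KRT81, KRT83 and KRT86 together (25 and 98 reads). KRT40 (31 and 23 reads), KRT23, KRT7 and KRT6B went the other way, so the sum does not show a rise shared by its members. With KRT10 kept, the sum was 467 and 709 reads, a 1.47-fold difference.

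The genes that were read lie in a few places of the 2 keratin clusters. The order of genes was taken from the RefSeq table of assembly GRCh38.p14, and since the authors' build is hg19 no coordinates are given. On chromosome 12, which holds the type II genes and KRT18, KRT80, KRT7, KRT86, KRT81 and KRT83 lie in a row at one end and KRT8 and KRT18 side by side at the other. The 20 genes between KRT83 and KRT8 held 3 reads in adherent and 7 in floating cells, and 16 of them had none. On chromosome 17, which holds the other 28 type I genes, most reads came from KRT10, and others from the neighbours KRT20, KRT23, KRT39 and KRT40 and from KRT15, KRT19 and KRT17. A further 5 genes there, KRT222, KRT12, KRT33B, KRT34 and KRT13, had 1 or 2 reads each in the floating library alone. EIF4B, an initiation factor gene beyond KRT18, was 1.15-fold lower in floating cells (log2 ratio -0.20), the opposite direction to KRT18.

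**Figure D5:**
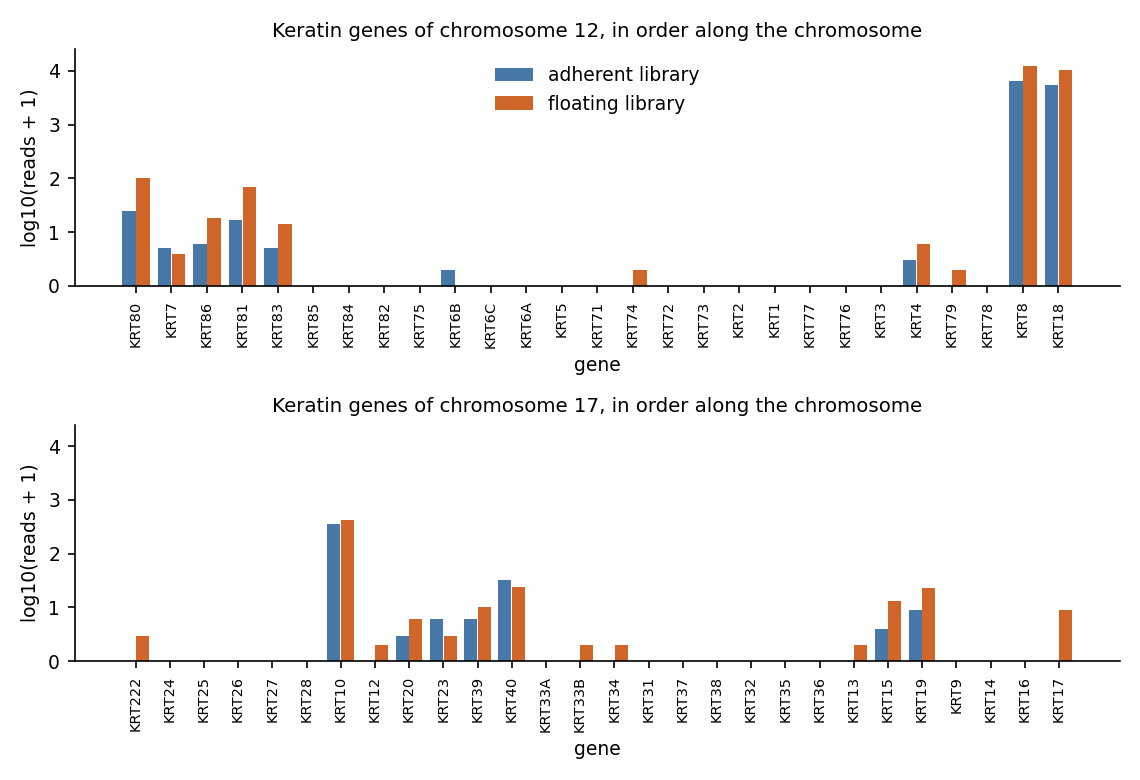
Reads per keratin gene as log10(reads + 1) (y axis) in order along chromosome 12 (top) and chromosome 17 (bottom), for the adherent (blue) and floating (orange) library. Reads on chromosome 12 stand at both ends of the row, with KRT80 to KRT83 at one end and KRT8 and KRT18 at the other, and KRT10 leads on chromosome 17.

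The tested genes of plakins and of linkers of keratin filaments differed less than KRT8. Of 13 plakins, desmosomal plaque proteins and other linkers, 12 were tested, and each had a log2 interval that ended below that of KRT8 (0.83 to 0.92). None passed the 2-fold rule in either direction, which at 2.03% of all tested genes says nothing about the list. Their median log2 ratio was -0.06 against -0.005 for all tested genes, with 4 intervals above 0 and 6 below, against 25.5% and 25.6% of all tested genes. DSP, which encodes desmoplakin, the plakin that ties keratin to desmosomes, was at 104.8 and 107.6 TPM (log2 ratio 0.07). PLEC, which encodes plectin, the linker of keratin to hemidesmosomes and other filaments, was at 68.27 and 55.45 TPM (log2 ratio -0.25). JUP, which encodes plakoglobin, was at 113.3 and 82.97 TPM (log2 ratio -0.42), and DST, which encodes dystonin, at 172.6 and 158.6 TPM. MACF1, a plakin that links actin to microtubules, had the highest log2 ratio of the list, 0.58 (interval 0.55 to 0.61).

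The label of an epithelial carcinoma was checked against marker genes. EPCAM, an epithelial adhesion molecule, was at 615.3 and 581.8 TPM, and the epithelial splicing regulator ESRP1 at 94.77 and 81.11 TPM. CDH1, which encodes E-cadherin, was at 18.85 and 13.94 TPM, a log2 ratio of -0.39 (interval -0.52 to -0.26). These 3 genes had ratios below 0, EPCAM by only 0.04 on the log2 scale, whereas KRT19, the other marker of the list beside KRT8 and KRT18, was 2.56-fold higher. Lung markers were low or absent, with SFTPC and SCGB1A1 at 0 reads in both libraries. NKX2-1 had 3 and 13 reads (3.73-fold higher in floating cells, interval 1.15 to 22.9). NAPSA, which encodes the protease napsin A, had 29 and 21 reads (1.95 and 1.32 TPM). The ratio of NAPSA included no difference (log2 ratio -0.51, interval -1.40 to 0.35). Endothelial and leukocyte markers were at 0 to 2 reads except PTPRC (2.84 and 1.95 TPM). Of the fibroblast markers COL1A1 (13.88 and 7.98 TPM) was measured, while DCN and PDGFRA had 1 to 5 reads. Of the mesenchymal markers beside VIM, FN1 was at 5.7 and 4.85 TPM, ZEB1 at 6.6 and 6.63 and CDH2 at 2.81 and 1.88. Intervals lay below no difference for VIM, FN1 and CDH2 and included it for ZEB1, against 25.6% of all tested genes with an interval below. The log2 ratios were -0.07 for VIM, -0.24 for FN1, -0.53 for CDH2 and 0.05 for ZEB1. With its many reads, VIM had a very short interval, so even a small difference excluded 0. In bulk RNA, more cells with a transcript and more RNA per cell cannot be told apart.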

How the data were processed

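Poly(A) RNA of 2 libraries was compared, 1 per growth form. The authors deposited a table of estimated counts per gene symbol, not normalized, and a table of TPM, scaled by the authors to sum to 999999 and 1000000. The submitters' processing notes name RSEM 1.3.3, STAR 2.5.3a, FastQC 0.11.1 and the build hg19. The annotation, any settings and whether strand was used were not given in the sources used here. Of the deposited estimated counts, 6.38% and 6.55% of values have decimals.

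Counts were rounded and scaled by TMM in edgeR 4.0.16 (R 4.3.3). The log2 ratio used (count + 0.5) per effective library, its interval the exact Clopper-Pearson one conditional on summed reads, and a quotient of 2 folds the exact conditional one. A gene with 0 reads is given a limit of 3 reads. Reads without molecular identifiers may be copies of 1 molecule, so counting error alone is covered by intervals and limits. Without replicates, the tests of edgeR and DESeq2 were not run. The calculation was tested on simulated libraries. Members, classes and lists were chosen with earlier results of these data known. Named were all keratins of at least 5 reads in 1 library and the 2 genes of highest mean TPM per list. PLEC, JUP, MACF1, EIF4B and the genes of the closing observations were chosen after their values were seen. Coding sequences came from GENCODE 29 principal transcripts, aligned with Biopython 1.88. For the printed codons at the rod end the best match of the translation to the helix termination motif was taken. Other steps used pandas 2.3.3, scipy 1.17.1 and numpy 2.4.6 under Python 3.11.15.

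Alternatives were scaling by library totals, by the upper quartile or by DESeq2 1.42.0 size factors, the deposited TPM (log2 of TPM + 0.1), a prior count of 5, no filter or 5 CPM, 1.5-fold and 4-fold thresholds, no interval, and pseudogene reads added to the parents. Added after the data were seen were the sum of KRT81, KRT83 and KRT86, class sums without their main genes, and reads per coding length.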

Additional observations from a re-analysis of the deposited data

How the results depend on the processing

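For the 15 keratins with at least 5 reads in 1 library, no log2 ratio changed sign under 6 or 7 alternatives, and none left its counting interval. The other scalings and the added pseudogene reads could hardly move a ratio. The scalings differ little, and the listed pseudogenes held at most 1 read per library. On the deposited TPM the log2 ratio was 0.83 for all keratins (0.87 on scaled counts), 0.84 for simple keratins and 0.84 for type II keratins, each just outside the counting interval. Class sums rest on their main genes: the log2 ratio was 2.08 for stratified keratins without KRT10 (0.23 with it) and 1.02 for simple keratins without KRT8 and KRT18. The number of keratins past the 2-fold rule, 2 of 6, was 6 of 55 with no filter, 0 of 3 with at least 5 CPM and 4 of 6 at 1.5-fold. At 1.5-fold 3.24% of all tested genes were higher, and no such share is given for the other filters. The further members with no filter, KRT15, KRT17, KRT19 and KRT86, had at most 22 reads. KRT80 and KRT81 were tested through the floating library alone, so these counts say little about keratins as a group. KRT80 and KRT81 lay just at 4-fold (log2 ratios 2.002 and 2.005), and both were below it with the upper quartile (1.99 and 1.99), on TPM (1.79 and 1.90) and with a prior count of 5 (1.82 and 1.75). Among epithelial transcription factors the count of 0 was 1 with no filter and 2 at 1.5-fold. The ratio of type I to type II (1.10 adherent, 1.08 floating) was 8.71 and 3.03 without KRT8 and KRT18, and 0.963 and 0.942 as reads per coding length, so which type was in excess depended on the length used. The ratio by RefSeq coding length was not run, since protein sequences were not used here. No paired analysis was possible because there was 1 library per group. Depth limits every keratin other than KRT8, KRT18 and KRT10, with at most 101 reads each.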

Other observations

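Of 12 transcription factors of epithelia 6 were tested. None passed the 2-fold rule, against 2.03% of all tested genes, a share at which a count of 0 says nothing about the list. At 1.5-fold 2 of the 6, TFAP2C and GRHL3, were higher in floating cells, against 3.24% of all tested genes. KLF5, a factor of proliferating epithelium, had 51.34 TPM among adherent and 45.38 TPM among floating cells (log2 ratio -0.13, counting interval -0.22 to -0.04). GRHL1, a grainyhead factor of epithelial barriers, was at 13.89 and 13.37 TPM. TFAP2C, an AP-2 factor of surface ectoderm, had 180 and 288 reads (1.54-fold higher in floating cells, interval 1.28 to 1.87), and GRHL3 had 46 and 79 reads (1.65-fold, interval 1.14 to 2.44). EHF, an epithelial ETS factor, had 0 and 7 reads which gave a 2.26-fold difference against a limit of 3 adherent reads, with a counting interval that reached down to 1.39-fold. TP63, the master factor of stratified epithelium, had 4 and 0 reads, and ELF3 had 4 and 2. GRHL2, OVOL1 and ZNF750 had 0 reads in both libraries.

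Of 6 factors of the hair follicle 4 were tested, and all 4 had ratios below 0, where the median log2 ratio of all tested genes was -0.005. The interval excluded no difference for LEF1 alone. Over all tested genes 25.6% had an interval below no difference, so these counts say little about the list. HOXC13, which is known to activate hair keratin genes, was at 12.02 and 10.52 TPM (log2 ratio -0.15, interval -0.38 to 0.08). LEF1, a WNT effector of the hair follicle, was at 42.78 and 31.43 TPM and lower in floating cells (log2 ratio -0.35, interval -0.45 to -0.25). Of 12 proteins of the cornified envelope, the crosslinked shell of differentiated keratinocytes, 3 were tested. SCEL was at 2.51 and 3.62 TPM (1.47-fold higher in floating cells, interval 1.13 to 1.93) and CNFN at 11.94 and 13.63 TPM, while IVL and LOR had 0 reads in both.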
